A study of Homo sapiens with 6 samples.

Results

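Synaptotagmins are a family of membrane-trafficking proteins, and 10 of their genes are described here: SYT1, SYT2, SYT4, SYT5, SYT7, SYT11, SYT14, SYT15, SYT16 and SYT17. They were picked by symbol from the 38900 Ensembl gene IDs of a deposited expression table, because SYT1 was about 4-fold lower after drug treatment in these same libraries. For that reason every treated-against-control value of the 10 genes is given as a description, with no test. The study sequenced polyA RNA from hTERT RPE1 cells, an established human retinal pigment epithelial line immortalised with telomerase. All cultures had been held at full confluency for 5 days, which takes the cells out of the cell cycle, and were then put in fresh medium for 6 hours. The 3 control cultures received 0.1% DMSO, the solvent, and the 3 treated cultures received 100 nM combretastatin A4 (CA4), a small molecule that binds tubulin and depolymerizes microtubules. The question is which transcripts differ once microtubules are lost in non-dividing cells. Nothing in the labels says whether the 3 cultures of a group were grown separately, so the spread between them may be technical.

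A typical synaptotagmin has a short membrane anchor followed by tandem C2 domains, C2A and C2B. In several members, acidic residues in the loops of these domains hold calcium ions, and the loops then dip into membranes that carry acidic lipids. SYT1 is the classical calcium sensor of synaptic vesicles: it binds SNARE proteins, the fusion machinery, and triggers fast release of neurotransmitter when calcium enters. Other members act on dense-core vesicles, lysosomes or endosomes, and some do not bind calcium. Vesicles that carry synaptotagmins travel along microtubules in neurons.

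The members differ in the coding sequence of the calcium-binding loops, and this is shown first because it separates SYT1 from the other members with many reads. Each line gives 33 bases of coding sequence, 5′ to 3′, from the GENCODE 29 transcript with the longest coding sequence. It covers the third loop of C2A, and capitals mark the 3 codons that align with codons for calcium-binding aspartates in SYT1.
SYT1: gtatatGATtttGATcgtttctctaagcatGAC
SYT2: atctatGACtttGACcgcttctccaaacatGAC
SYT5: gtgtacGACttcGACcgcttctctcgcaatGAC
SYT7: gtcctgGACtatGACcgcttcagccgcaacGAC
SYT4: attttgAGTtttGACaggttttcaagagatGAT
SYT11: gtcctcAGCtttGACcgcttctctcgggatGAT
SYT17: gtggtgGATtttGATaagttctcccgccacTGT
SYT15: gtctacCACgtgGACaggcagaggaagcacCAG
SYT14: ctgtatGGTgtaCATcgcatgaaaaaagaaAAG
SYT16: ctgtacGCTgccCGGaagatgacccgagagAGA
All 3 marked codons were GAT or GAC, the aspartate codons, in SYT1, SYT2, SYT5 and SYT7. In SYT4 and SYT11 the first of the 3 was a serine codon and 2 of 3 were aspartate codons. SYT17 had 2 of 3, SYT15 had 1 of 3, and SYT14 and SYT16 had 0 of 3.

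The same loop of C2B is given for the 3 members with the most reads, with capitals marking the codons aligned to SYT1's aspartate codons.
SYT1: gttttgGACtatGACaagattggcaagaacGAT
SYT11: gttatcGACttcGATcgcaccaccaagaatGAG
SYT14: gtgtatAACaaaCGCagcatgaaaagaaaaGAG
In this stretch SYT11 had 2 of 3 aspartate codons and SYT14 had 0 of 3. SYT2 and SYT5 also had 2 of 3 here, so the C2B count does not set SYT11 apart from SYT2 and SYT5. SYT7 had 3 of 3, as SYT1 did. Over the whole aligned coding sequence, SYT2 shared 73.5% of bases with SYT1 and SYT5 shared 61.7%. SYT7 shared 50.1%, and the other 6 members shared between 37.8% and 46.2%. The genes also differ in extent. In GENCODE 29 on GRCh38, SYT1 (ENSG00000067715) lies on chromosome 12 from 78863993 to 79452008 on the plus strand, a span of 588 kb. The other members span from 9.24 kb for SYT5 to 300.6 kb for SYT16.

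The libraries held between 19524936 and 22538004 reads, as recovered from the deposited values. Those values are reads divided by 1 scaling factor per library and are called normalized counts below, 1 read being worth between 0.935 and 1.12 of them. A gene was tested when its mean over the 6 libraries was at least 10 normalized counts, which 13928 genes met. Differences are given as log2 fold changes of CA4 minus DMSO on log2(normalized count + 1), with the moderated standard error (SE) of limma, and a gene was called at an adjusted p of 0.05. This called 688 genes, 4.94% of those tested. Of these, 413 were higher in CA4, 2.97% of tested genes, and 275 lower, 1.97%. With every library scaled to the same total, 279 were higher and 523 lower, and the median log2 fold change of all genes shifted by -0.10. The 3 CA4 libraries lay wholly above or wholly below the 3 DMSO libraries in 27.7% of tested genes. In bulk RNA, fewer cells making a transcript and less transcript per cell cannot be told apart.

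SYT1 was the one member in which the libraries of the groups lay far apart. The DMSO libraries held 1653, 1989 and 1518 normalized counts of SYT1 in replicates 1, 2 and 3, and the CA4 libraries held 389, 392 and 496. The lowest DMSO library thus stood well above the highest CA4 library. The group means were 1720 ± 242 for controls and 425 ± 61.2 for CA4 (± SD, n = 3 per group), 4.04-fold lower in CA4, and the log2 fold change was -2.01 (SE 0.14). Relative to its mean, SYT1 varied alike within the groups, with a coefficient of variation of 14.1% in DMSO and 14.4% in CA4. The values rest on 1712, 2127 and 1599 reads in DMSO against 402, 349 and 445 with CA4, so counting error is a small part of that spread. None of the 50-base words of its GENCODE 29 transcripts occurs in another gene, and 0.216% of its exon bases overlap one, ENSG00000257191 on the opposite strand. Across the alternatives its log2 fold change stayed between -2.13 and -1.90.

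**Figure D1:**
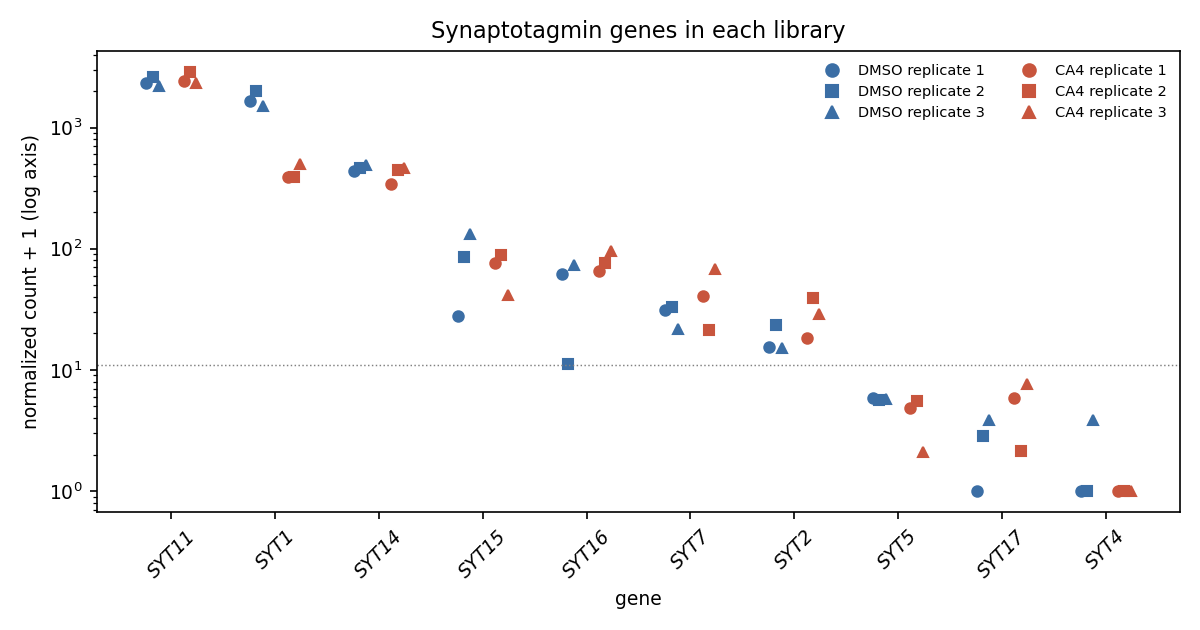
Normalized count plus 1 (log axis) of the 10 synaptotagmin genes in each of the 6 libraries, with DMSO in blue, CA4 in red and marker shapes for replicate numbers. The dotted line marks 10 normalized counts. SYT1 sits at 1518 to 1989 in DMSO and 389 to 496 in CA4, while the groups overlap in every other gene except SYT5, which has 5 reads or fewer in every library.

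SYT11 and SYT14 were the other members with ample reads, and neither showed a separation of the groups. SYT11 encodes a member that does not sense calcium through C2A and is known for restraining endocytosis. Its 3 DMSO libraries held 2308, 2630 and 2210 normalized counts and its CA4 libraries 2406, 2886 and 2339. The groups overlapped, the highest value of each being replicate 2. Its means were 2383 ± 220 and 2544 ± 298 (± SD, n = 3 per group), a difference of 0.092 in log2 (SE 0.11). That value was -0.0094 with libraries scaled to the same total, and it lay between -0.0022 without CA4 replicate 2 and 0.17 without DMSO replicate 2. Its sign was kept in 16 of 18 alternatives. With the replicate number as a block the SE was 0.060, but the labels do not say that the numbers are pairs. SYT14, which lacks the calcium-binding codons shown above, had 434, 467 and 491 normalized counts in DMSO and 339, 445 and 459 in CA4. One CA4 library was the lowest, and the other two lay inside the DMSO range. The means were 464 ± 28.8 and 415 ± 65.7 (± SD, n = 3 per group), and the log2 fold change of -0.17 (SE 0.14) was -0.034 without CA4 replicate 1 and -0.27 with libraries scaled to the same total.

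Among the members below 150 normalized counts, SYT15, SYT16 and SYT7 varied more between replicates of at least 1 group than counting error gives. SYT15 encodes a member thought not to need calcium. It had 27.0, 84.1 and 130.1 normalized counts in DMSO and 75.4, 87.5 and 40.1 with CA4, so that the DMSO libraries enclosed all the CA4 values. The variance of its reads was 35.2 times their mean in DMSO and 9.19 times in CA4, where counting alone gives a value near 1. Its log2 fold change of -0.057 (SE 0.57) became -0.69 without DMSO replicate 1 and 0.42 without DMSO replicate 3. Of the 50-base words of SYT15 transcripts, 68.8% also occur in SYT15B, a near-identical copy on the same chromosome, so reads could have been assigned to either. Of the normalized counts of both genes, SYT15 took 40.6%, 46.9% and 64.9% in the DMSO libraries and 77.2%, 55.7% and 37.9% in the CA4 libraries. Together they had 149 ± 71.9 in controls and 120 ± 32.2 in treated libraries (± SD, n = 3 per group), again with overlapping ranges.

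SYT16, a relative of SYT14 without the calcium-binding codons, had 60.8, 10.3 and 72.2 normalized counts in DMSO and 64.8, 75.2 and 94.7 in CA4. DMSO replicate 2, with 11 reads against 63 and 76 in the other controls, stood apart. The variance of SYT16 reads was 23.7 times their mean in DMSO and 1.48 times in CA4. The log2 fold change of 1.08 (SE 0.67) rested on that library and was 0.22 without it, and 0.71 with edgeR on all 6 libraries. SYT7 encodes a calcium sensor of lysosome exocytosis and membrane repair. It had 29.9, 31.8 and 20.9 normalized counts in DMSO against 39.6, 20.2 and 66.9 with CA4, and the CA4 libraries held both the lowest and the highest value. For SYT7 that ratio of variance to mean was 1.34 in DMSO and 11.2 in CA4. Its log2 fold change was 0.47 (SE 0.46), and it ran from 0.062, when CA4 replicate 3 was left out, to 0.90, when CA4 replicate 2 was. Leaving out DMSO replicate 3 gave 0.29. SYT2, the closest relative of SYT1 and the fast calcium sensor of several kinds of synapse, had 14.5, 22.4 and 14.2 in DMSO and 17.4, 38.1 and 27.9 with CA4. The CA4 libraries tended to be the higher ones but overlapped DMSO replicate 2. The log2 fold change was 0.64 (SE 0.41), and it lay between 0.38 without CA4 replicate 2 and 0.93 without CA4 replicate 1. Of the exon bases of SYT2, 27.2% lie in PPP1R12B on the opposite strand, and whether reads of that gene enter the SYT2 count was not tested.

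SYT4, SYT5 and SYT17 were close to the limit of detection and were not tested. SYT5, found on secretory vesicles, had 5, 5 and 5 reads in DMSO and 4, 4 and 1 in CA4. These groups do not overlap, but the gap between 5 and 4 is a single read. SYT17, which lacks the membrane-spanning segment of most synaptotagmins, had 0, 2 and 3 reads in DMSO and 5, 1 and 6 in CA4. SYT4, a member of dense-core vesicles with the serine codon shown above, had 3 reads in DMSO replicate 3 and 0 in each of the other 5 libraries. A count of 0 allows up to 3 reads, so no difference in SYT4 was detectable at this depth. The other 7 members passed the filter on low values, and since their contrast chose the members, no count of calls is given for them.

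Levels of different genes can be set side by side only per length, and here normalized counts were divided by the kilobases of merged exons. SYT11 was highest in DMSO at 455 ± 41.9 per kb, and SYT1 followed at 265 ± 37.3 (± SD, n = 3 per group), with no overlap between their ranges of 422 to 502 and 234 to 306. Among the 13115 tested genes with an exon length, 88.2% had a lower level per kb in DMSO than SYT11 and 79.4% a lower level than SYT1. SYT14 came next at 33.3 ± 2.06 per kb, with 27.7% of those genes at a lower level. SYT15 (11.2 per kb), SYT7 (4.63), SYT16 (3.14) and SYT2 (2.19) followed in the means of the DMSO libraries, and each neighbouring pair in that order had overlapping ranges. SYT5 (0.888), SYT4 (0.214) and SYT17 (0.209) stood last, SYT5 below SYT2 without overlap and the other two overlapping each other.

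In CA4 the order of the first 8 members was the same. SYT11 stood at 485 ± 56.9 per kb and SYT1 at 65.5 ± 9.42 (± SD, n = 3 per group), and SYT1 still lay above SYT14, at 29.8 ± 4.71, without overlap. The level of SYT1 relative to SYT11 per kb of exon came to 0.581 ± 0.028 in controls and 0.137 ± 0.031 in treated libraries (± SD, n = 3 per group). With the longest coding transcript as the length, this ratio was 0.785 in DMSO and 0.185 in CA4.

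**Figure D2:**
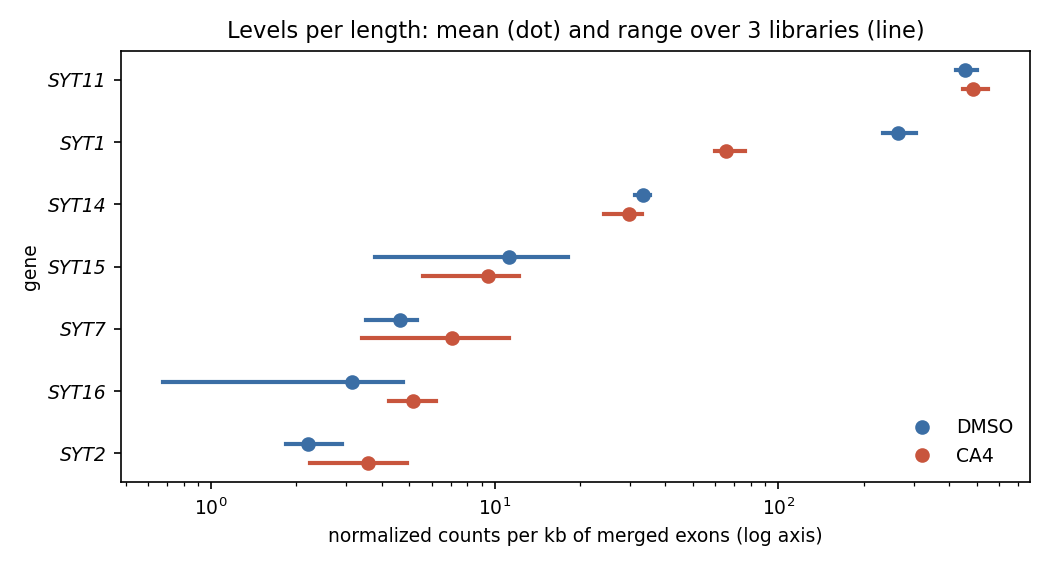
Normalized counts per kilobase of merged exons (log axis) for the 7 synaptotagmins that passed the filter, with dots for group means and lines for the range over 3 libraries in DMSO (blue) and CA4 (red). SYT1 is second in both groups, at 265 per kb in DMSO and 65.5 in CA4, and its CA4 range touches neither SYT11 nor SYT14.

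The make-up of the family's reads differed between the groups through SYT1. SYT1 gave 36.5%, 37.9% and 34.0% of the reads of the 10 genes in the control libraries, by replicate number, against 11.6%, 9.91% and 14.0% in the treated ones. The 95% Wilson intervals of single libraries, which cover counting error only, ran from 32.7% to 39.2% over the DMSO libraries and from 8.97% to 15.3% over the CA4 libraries. SYT11 gave 50.2% ± 0.729 of the reads in controls and 70.4% ± 3.68 in treated libraries (± SD, n = 3 per group), while its own normalized counts overlapped between groups. The 10 genes summed to 4746 ± 429 normalized counts in controls and 3607 ± 312 in treated libraries (± SD, n = 3 per group). Without SYT1 the sums were 3026 ± 198 and 3182 ± 329, and their ranges overlapped.

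**Figure D3:**
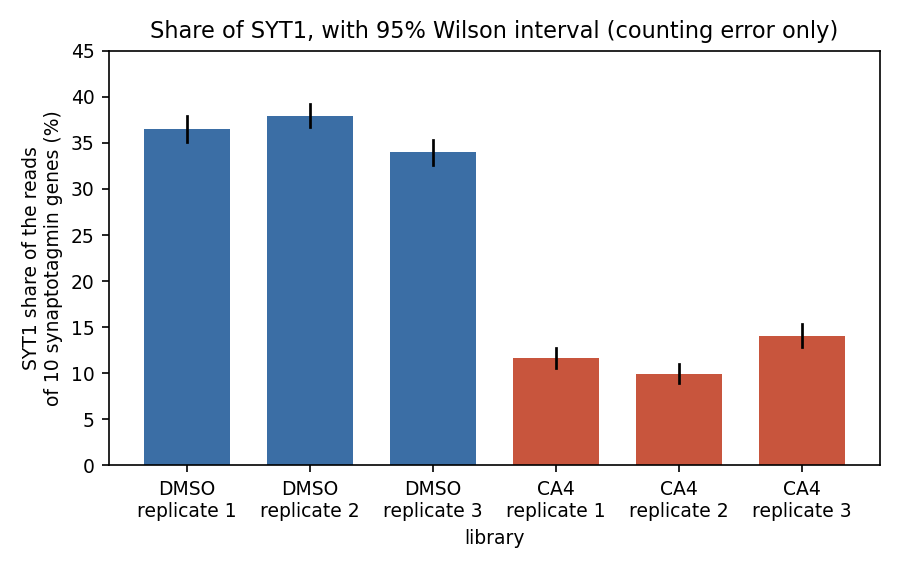
Share of SYT1 in the reads of the 10 synaptotagmin genes, in percent, for each library, with bars for the share and black lines for its 95% Wilson interval. The DMSO libraries stand between 34.0% and 37.9% and the CA4 libraries between 9.91% and 14.0%.

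Among the remaining synaptotagmins, 5 were too low to be tested, and those tested were not called in either direction. Of 8 such genes (SYT3, SYT6, SYT8, SYT9, SYT10, SYT12, SYT13 and SYT15B), 3 were read deeply enough to be tested. Of these, limma called 0, beside 4.94% of all tested genes. None of the 3 had an unadjusted limma p under 0.05, beside 3197 of all 13928 tested genes. With edgeR and DESeq2 0 were called as well, beside 643 and 1613 of all 13928. So few genes say little against those shares. SYT12, whose product does not need calcium, was the most read of them, with 925, 569 and 573 normalized counts in DMSO and 736, 780 and 979 in CA4 (log2 fold change 0.30, SE 0.21, limma adjusted p = 0.443). SYT8 had the widest difference of the 3, from 50.7 ± 26.4 in DMSO to 25.7 ± 15.7 in CA4 (± SD, n = 3 per group; log2 fold change -1.04, SE 0.69, limma adjusted p = 0.417), and its groups overlapped. SYT15B was not called (log2 fold change -0.45, SE 0.51, limma adjusted p = 0.647). SYT6 had no read in any library.

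The proteins that work with synaptotagmins in membrane fusion and retrieval were examined as lists of 100 genes in all, those 8 included. Of these, 70 were tested and 5 were called, 2 higher and 3 lower, a share of 7.14% beside 4.94% of all tested genes. With every library scaled to the same total, 6 were called, 1 higher and 5 lower. The median log2 fold change of the 70 was 0.059 and that of all tested genes was -0.0082. The call count moved with the libraries used, as did that of all tested genes, which went from 688 to between 81 and 994. For the 70, the fits without 1 library gave between 1 and 4 genes, with 1 gene called without DMSO replicate 2 or without DMSO replicate 3, and 2 genes without CA4 replicate 1, 2 or 3. RIMS1 was called in each of those 6 fits.

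Among proteins that assemble SNAREs or prime and dock vesicles, 3 of 23 tested genes were called, 13% beside 4.94% of all tested genes. RIMS1 encodes a scaffold of the presynaptic active zone that docks vesicles beside calcium channels and binds synaptotagmin. It had 496, 433 and 510 normalized counts in DMSO and 1029, 954 and 1180 in CA4, and every CA4 library was above every DMSO library. RIMS1 rose by 1.13 on the log2 scale (SE 0.12, limma adjusted p = 0.00601). RAB27B, a small GTPase that tethers secretory vesicles and exosome-bearing endosomes at the cell surface, had 183, 208 and 193 normalized counts in DMSO and 99.5, 50.5 and 66.9 in CA4. RAB27B fell by 1.47 on the log2 scale (SE 0.26, limma adjusted p = 0.0239). Its call did not hold when DMSO replicate 2, DMSO replicate 3 or CA4 replicate 3 was left out and in the fit with no variance trend, while the log2 fold change stayed between -1.72 and -1.24 in all alternatives. STXBP6, or amisyn, competes with VAMP for places in SNARE complexes. It had 89.8, 75.7 and 64.6 in DMSO and 39.6, 34.8 and 32.3 in CA4, a fall on the log2 scale of -1.08 (SE 0.24, limma adjusted p = 0.0478). That call was lost in 11 of 18 alternatives: all 6 fits without a library, edgeR, no filter, a mean of at least 50, quantile normalization and no variance trend. The highest adjusted p of any alternative was 0.156, and the log2 fold change stayed between -1.20 and -0.96.

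Of the SNARE proteins themselves, 16 of 18 were tested and 0 were called by limma, beside 4.94% of all tested genes. At an unadjusted limma p under 0.05 there were 3 (STX1A, STX11 and VAMP4), beside 3197 of all 13928 tested genes. On this list edgeR called 0 and DESeq2 2, beside 643 and 1613 of all 13928. The most read, VAMP3, a vesicle SNARE of recycling endosomes, had between 2218 and 2286 normalized counts in all 6 libraries (log2 fold change 0.016, SE 0.069, limma adjusted p = 0.924). STX4, a plasma membrane SNARE, was not called either (log2 fold change 0.12, SE 0.099, limma adjusted p = 0.514). Among related C2-domain proteins, 1 of 9 tested genes was called, 11.1% beside the same 4.94%. MYOF, or myoferlin, a ferlin of membrane repair and the most read gene of these lists, had 17863, 17637 and 16157 normalized counts in DMSO and 25929, 27465 and 22466 in CA4. MYOF rose by 0.55 on the log2 scale (SE 0.097, limma adjusted p = 0.0239), a call lost without DMSO replicate 2, DMSO replicate 3, CA4 replicate 1 or CA4 replicate 2. With libraries scaled to the same total its log2 fold change was 0.45 (limma adjusted p = 0.0521), and with quantile normalization it was 0.36 (limma adjusted p = 0.0988), which ended the call in both, as did the fit with no variance trend.

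In the list of vesicle membrane proteins and endocytic partners, 1 of 19 tested genes was called, 5.26% beside 4.94% of all tested genes. STON1 encodes a stonin, and its relative stonin 2 is an endocytic adaptor that sorts synaptotagmin back from the plasma membrane. STON1 had 152, 447 and 386 normalized counts in DMSO and 56.1, 107 and 66.9 with CA4. The groups did not overlap, with DMSO replicate 1 nearest to the CA4 libraries. STON1 fell by 1.996 on the log2 scale (SE 0.43, limma adjusted p = 0.0442). Its call did not hold in 5 of the 6 fits without a library, all but the one without DMSO replicate 1, and with quantile normalization and no variance trend. The log2 fold change stayed between -2.48 and -1.70 in all alternatives. STON1-GTF2A1L, a read-through gene that holds 28.0% of the 50-base words of STON1, had 16 reads or fewer in every library. SV2A, a vesicle protein that binds SYT1, was not called, with 1217, 1515 and 1412 normalized counts in DMSO and 1164, 1377 and 1216 in CA4.

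**Figure D4:**
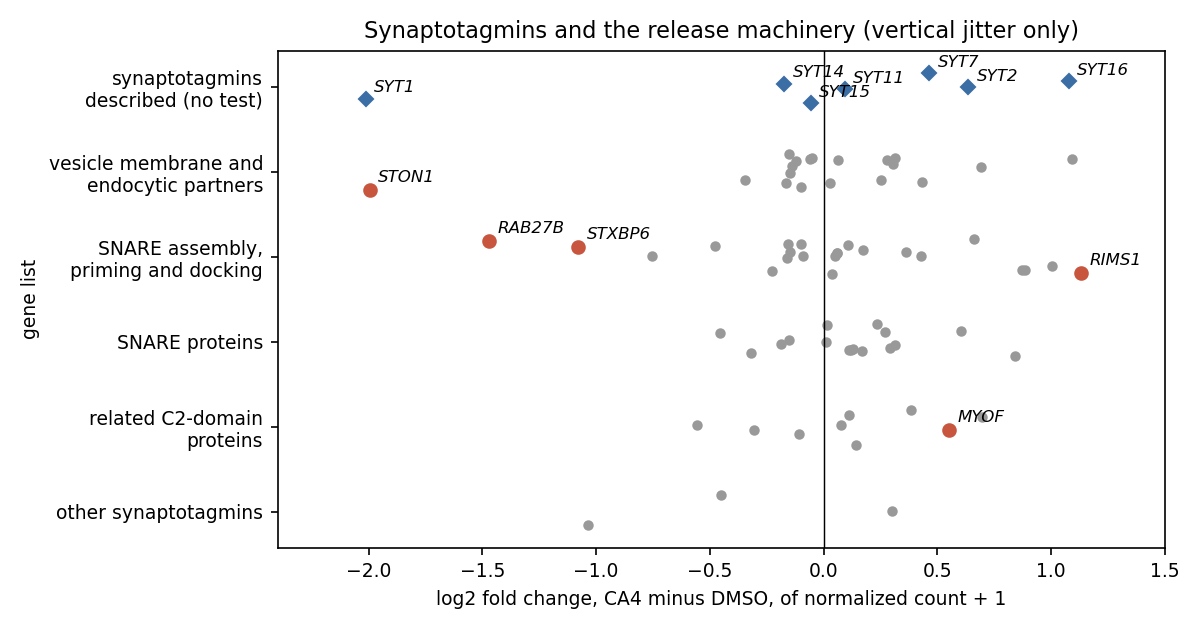
Log2 fold change (CA4 minus DMSO, of normalized count plus 1) of the 7 synaptotagmins that passed the filter (blue diamonds, no test) and of the 70 tested genes of 5 release machinery lists, with called genes in red and named, others in grey. SYT1 lies at -2.01 and STON1 at -1.996, while most genes lie near 0.

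The genes beside SYT1 on chromosome 12 did not share its lower level. The nearest tested genes are NAV3 and E2F7 before it, 651 kb and 1798 kb away, and PAWR and PPP1R12A after it, 123 kb and 322 kb away. Their log2 fold changes were 0.40, 0.42, 0.57 and 0.20 in that order. Of the 4, limma called none (adjusted p from 0.0746 for PAWR to 0.495 for NAV3), beside 4.94% of all tested genes. PAWR alone had an unadjusted limma p under 0.05, as did 3197 of all 13928 tested genes. Of the 4, edgeR called 0 and DESeq2 1, beside 643 and 1613 of all 13928. PAWR had 3560, 4519 and 5329 normalized counts in DMSO and 5895, 6687 and 7086 in CA4.

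Across the 6 libraries, the genes whose log2 values followed SYT1 most closely were NT5DC1 (Pearson r = 0.998), MAP2K7 (0.995), CUL3 (0.995), STIM2 (0.991) and ANXA1 (0.991), out of 11688 genes with a mean of at least 50. The 6 points share 2 groups of 3, so r mostly reflects the step between groups, and 3.94% of these genes had an r over 0.9. Their steps were smaller than that of SYT1, from -0.90 for STIM2 to -0.17 for MAP2K7 on the log2 scale. Because these genes were picked for following SYT1, no test of their step is given. Of the members, SYT14 had r = 0.544 with SYT1, and the other 5 tested members had values between -0.593 and -0.0191.

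Markers of the labelled cell type and of neurons were read in the same libraries. KRT8, KRT18 and VIM, expected of an epithelial line in culture, had 8393 or more normalized counts in each library. TERT, the gene added to immortalise the line, was called higher in CA4, from 57.6 ± 15.4 to 166 ± 39.2 normalized counts (± SD, n = 3 per group; log2 fold change 1.53, SE 0.28, limma adjusted p = 0.0272), a call that did not hold in 4 of the fits that leave out a library. Whether the TERT reads come from the added copy or from the cells' own gene was not tested. Of 13 markers of differentiated retinal pigment epithelium, 7 were tested and 2 were called, OTX2 and PAX6, both lower in CA4, 28.6% beside 4.94% of all tested genes. On the same list edgeR called 1 and DESeq2 3, beside 643 and 1613 of all 13928 tested genes. MITF, a transcription factor of pigment cells, was not called (log2 fold change -0.98, SE 0.29, limma adjusted p = 0.100). It had an unadjusted limma p under 0.05, as did 3197 of all 13928 tested genes. RPE65 (log2 fold change -0.69), BEST1 (-0.032), SERPINF1 (0.15) and PMEL (0.30) were not called either. Of the 7 fits, 2 were higher in CA4 and 5 lower. The visual cycle gene RPE65 had at most 40.8 normalized counts in any library, TYR had at most 2.9, and DCT and TTR had 0 in all 6. OTX2, a transcription factor of the eye, had 423, 630 and 547 normalized counts in DMSO and 226, 255 and 251 in CA4 (log2 fold change -1.11, SE 0.16, limma adjusted p = 0.0158). PAX6, another, fell as well (log2 fold change -0.74, SE 0.16, limma adjusted p = 0.0483). Each of these calls was lost in 4 of the 6 fits without a library, those without DMSO replicate 2, DMSO replicate 3, CA4 replicate 1 or CA4 replicate 3, as was that of TERT. The fit with no variance trend also ended all 3 calls, and PAX6 lost its call in 9 of 18 alternatives in all, edgeR included. The summed level of the 13 markers, most of it from PAX6, MITF and OTX2, ran from 2194 to 3210 in DMSO and from 1254 to 1932 in CA4. It thus mainly repeats the values of these genes, and its part in the result for SYT1 was not tested.

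Of 13 markers of neurons and neuroendocrine cells, 5 were tested and limma called 0, beside 4.94% of all tested genes. With edgeR and DESeq2 0 were called as well, beside 643 and 1613 of all 13928 tested genes. At an unadjusted limma p under 0.05 there were 2 (SCG2 and GAP43), beside 3197 of all 13928. The 8 untested markers were low: CHGA had no read, RBFOX3 had at most 18.9 normalized counts, and STMN2, NEFL, NEFM, NEFH, INA and CHGB had at most 10.1. The 5 tested markers were read more. ENO2 had 1457 to 2276 normalized counts over the 6 libraries, SCG2 174 to 400, SNAP25 28.97 to 100.5, SYP 25.6 to 48.2 and GAP43 6.77 to 37.4. GAP43, a protein of growing axons, was lower in each CA4 library than in any DMSO library but was not called (log2 fold change -1.52, SE 0.43, limma adjusted p = 0.0865). SCG2, a secretory granule protein, was not called either and its groups overlapped (log2 fold change -0.69, SE 0.23, limma adjusted p = 0.134). The summed level of the list, most of it from ENO2, ran from 1853 to 2763 in DMSO and from 1813 to 2080 in CA4. The part of these markers in the result for SYT1 was not tested.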

How the data were processed

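RNA of 6 RPE1 cultures was sequenced after polyA selection by a service, per the labels' protocols. The submitters' processing notes name GRCh38, Trim Galore 0.6.6, FastQC 0.12.1, Salmon 1.8.0, STAR 2.7.9a and DESeq2 1.44.0, without the role of each; annotation and use of strand are not given in the sources used here. The deposited values are a signal, reads per gene divided by 1 factor per library, per the file headers 1 column per library. In every column 100% of values were whole multiples of 1 step within 0.01, and dividing by it recovered whole reads, which may be rounded estimates.

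Symbols came from the supplied table for 35803 IDs and from GENCODE 29 for 29 more. Genes with a mean of at least 10 were fitted by limma 3.58.1 in R 4.3.3 on log2(normalized count + 1), with treatment as the only term and a variance trend; two-sided p-values were adjusted by Benjamini-Hochberg over all tested genes. Exon lengths, overlaps and 50-base words came from GENCODE 29; coding sequences were aligned as translations with MAFFT 7.526. The scripts were tested on simulated data.

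Members and lists were chosen with earlier results of these data known. Named genes are the members, up to 4 called genes per release machinery list (otherwise its 2 most read), the 2 nearest tested genes on each side of SYT1, the 5 most correlated with it, and called markers; other names (SV2A, SYT6, SYT8, STX1A, STX11, VAMP4 and uncalled markers) were chosen after their values were seen. Alternatives were pseudocounts of 0.1 and 5, no filter, a mean of at least 50, quantile normalization, equal 75th percentiles, equal totals, no trend, a robust prior, a replicate block, edgeR 4.0.16 and DESeq2 1.42.0 on recovered reads, and leaving out each library.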

Additional observations from a re-analysis of the deposited data

How the results depend on the processing

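The log2 fold change of SYT1 kept its sign and moved by less than the replicate spread in all 18 alternatives, from -2.13 to -1.90, and leaving out 1 library gave that same range. SYT1 was picked for its fall in these same libraries, so this stability is a description and no test of the fall. The 688 called genes became 103 without the variance trend, 1613 with DESeq2 on recovered reads and 2397 with the replicate block, while edgeR gave 643, of which 630 were shared with the 688. Leaving out 1 library gave from 81 to 994: omitting DMSO replicate 3 gave 81 and DMSO replicate 2 gave 100, while omitting CA4 replicate 3 gave 150 and CA4 replicate 1 gave 156. Omitting DMSO replicate 1 raised the count to 994, and omitting CA4 replicate 2 gave 503. The 5 called release machinery genes became 2 with quantile normalization, 1 without the variance trend, 12 with DESeq2 on recovered reads, 12 with the replicate block, and from 1 to 4 without 1 library. The ratio of SYT1 to SYT11 per length in DMSO moved from 0.581 to 0.785 with transcript length, and lay between 0.566 and 0.594 without 1 library. The causes of these shifts were not tested. The replicate numbers were not taken as pairs, since deviations of same-numbered libraries correlated at 0.202, 0.159 and 0.0588 and did not all exceed 0.1. Of the 6 libraries, 5 correlated best with their own number, a hint from the data and not from the design. Depth limits SYT4, SYT5 and SYT17, at 6 reads or fewer per library, where neither presence of a difference nor its absence could be read.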
